A study of Mus musculus with 2 samples.

Results

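The transcripts of the mitochondrial genome and the nuclear genes that copy, transcribe, cut, stabilise and degrade them were followed in RAW264.7, a line of mouse macrophages made by transformation with the Abelson murine leukaemia virus, grown in 3D or in 2D. The set holds 39 genes out of 52550 gene identifiers, picked by symbol and not by value: 15 genes encoded by mitochondrial DNA (mtDNA) and 24 nuclear genes. There was 1 library of untreated cells from 3D culture (3D cells) and 1 of untreated cells from 2D culture (2D cells). The sources used here do not give the way in which 3D growth was obtained. The libraries were made from polyadenylated RNA with a kit that marks the strand, and the values are reads counted per gene, 16652503 for 3D cells and 14371084 for 2D cells. Nothing in the labels says whether the cells shared a passage, a batch or a day.

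Since 1 library stands for each way of growth, differences cannot be set against the spread of replicates and p-values are not given. Intervals are 95% intervals for counting error only and hold no spread between cultures, and reads that carry no molecular identifier may copy one molecule several times. Levels are counts per 1000000 (CPM) scaled by TMM, a method that balances the bulk of genes between libraries, and a ratio is the 3D level over the 2D level. TMM raises every ratio by 0.60 on the log2 scale over scaling to total counts, so the side of 1 on which a small difference falls depends on that choice. Genes counted as measured had a mean of at least 1 CPM in the pair of libraries, which held for 11673 genes in all, for 14 of the 15 mtDNA-encoded genes and for 23 of the 24 nuclear ones. In bulk RNA, fewer cells of a type and less RNA per cell cannot be told apart. Of 8 macrophage markers all were measured, with summed levels of 9485 CPM in 3D cells and 3268 CPM in 2D cells. Under TMM 6 of the 8 had a ratio above 1, among them Cd14 at 4.24, Cd68 at 3.26 and Lyz2 at 2.62. The 2 below 1 were Ptprc at 0.368 and Itgam at 0.731. At least 2-fold differences were 5 higher and 1 lower, where 18.7% and 20.8% of all measured genes were. After the adjustment for GC content, length and level, 0 of 8 were past 2-fold, with a median log2 ratio of 0.12. Summed levels of 6 fibroblast and 4 epithelial markers lay at or under 2.07 CPM in each library, with Col3a1 at 0 in both. The lymphocyte markers Cd3e, Cd3d and Ms4a1 were at 0 in both libraries. The 6 hepatocyte markers summed to 311 counts in 3D cells and 10 counts in 2D cells, and their part in the results below was not tested.

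Mammalian mtDNA is a small circle that encodes core subunits of the respiratory chain, the RNAs of the mitochondrial ribosome and a set of tRNAs. It is transcribed from both strands into long precursors, which are cut at the tRNAs, and the messengers are then given short poly(A) tails inside the organelle. The copying, reading and trimming enzymes all come from nuclear genes and are imported. Macrophages are known to change how they use their respiratory chain when they are activated.

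A stretch of mouse chromosome 1 carries copies of several mitochondrial genes, and the sequences show how little separates the pairs. On build mm10, 7 pseudogenes lie side by side between 24611535 and 24616197 of chromosome 1, and each matches part or all of one mitochondrial gene. The transcripts of mt-Co2 and its copy Gm28661 were identical over all 681 aligned bases, as were mt-Atp6 and Gm10925 over 678 and mt-Co3 and Gm28437 over 783. mt-Nd4l and Gm10222 were identical over 294 bases and mt-Nd4 and Gm28439 over 876, which is 63.6% of mt-Nd4. mt-Nd3 and Gm28438 differed by T3C, counted from 1 at the start of mt-Nd3, in 345 bases, and mt-Co1 and Gm29216 by A1066T in 483 bases, or 31.3% of mt-Co1. The first bases of mt-Co2 (chrM:7013-7072, plus strand) and of Gm28661 (chr1:24615506-24615565, minus strand) show an identical pair, with the start codon in capitals. Those of mt-Nd3 (chrM:9459-9481, plus strand) and Gm28438 (chr1:24613097-24613119, minus strand) show the pair with 1 difference, with the differing base in capitals. The 43 bases that mt-Atp8 and mt-Atp6 share (chrM:7927-7969, plus strand) follow, with the start of mt-Atp6 and the stop codon of mt-Atp8 in capitals, since a read there belongs to both genes. All are GENCODE transcript sequences.
mt-Co2: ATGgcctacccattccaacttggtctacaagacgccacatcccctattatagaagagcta
Gm28661: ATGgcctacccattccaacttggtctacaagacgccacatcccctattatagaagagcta
mt-Nd3: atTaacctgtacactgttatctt
Gm28438: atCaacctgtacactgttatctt
mt-Atp8 and mt-Atp6: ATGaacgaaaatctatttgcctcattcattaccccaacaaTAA

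Counts fell into separate ranges along this line. For mt-Co2, mt-Co3, mt-Atp6, mt-Nd3 and mt-Nd4l, 98% or more of all 50-base words of the transcript also occurred in transcripts of other genes. These 5 messengers had 47.1 to 924 counts per 1000 bases in 3D cells and 84.2 to 1500 in 2D cells. The 7 other measured messengers, for which the share was 0% to 62.2%, had 5931 to 95566 counts per 1000 bases in 3D cells and 10794 to 145373 in 2D cells. The ranges did not overlap in either library. Per length, mt-Co1 stood 103-fold above mt-Co2 in 3D cells and 96.9-fold above it in 2D cells, although both encode subunits of cytochrome oxidase. The sources used here do not say what the counting did with reads that fit more than one place, and its part in these low counts was not tested. The levels of those 5 messengers are therefore uncertain in both libraries, and those of mt-Co1 and mt-Nd4 in part. mt-Atp8, which encodes the small membrane subunit of ATP synthase next to mt-Atp6, had 0 counts in 3D cells and 2 in 2D cells and was not measured. Its 161 bases outside the overlap correspond in place to 233 bases between Gm10925 and Gm28661 that hold no annotated gene, and their sequence was not analysed here.

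**Figure D1:**
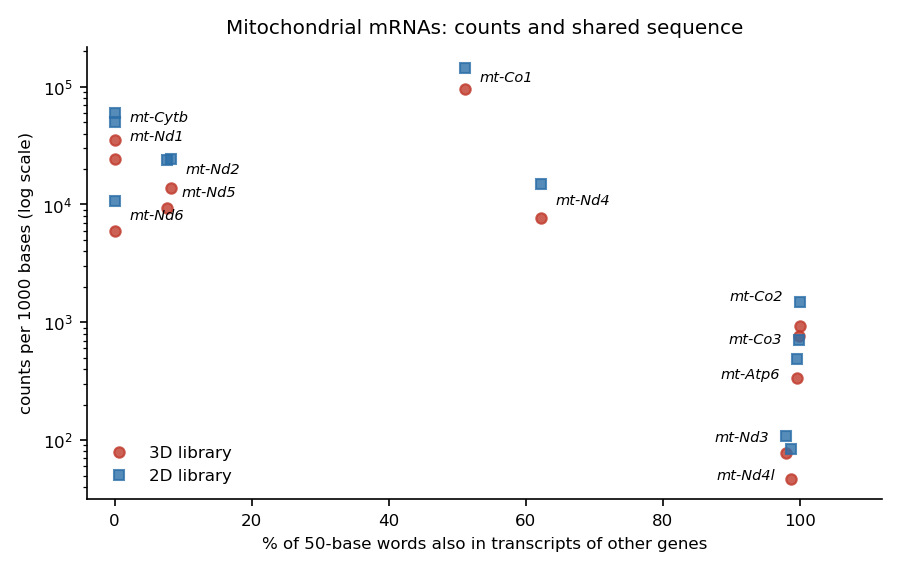
Counts per 1000 bases (log scale) of the 12 measured mitochondrial messengers in 3D and 2D cells against the percentage of their 50-base words that also occur in transcripts of other genes. The 5 messengers at 98% or more lie at or under 1500 counts per 1000 bases, and the other 7 lie at or above 5931 in both libraries.

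Mitochondrial transcripts took up a smaller part of the 3D library. The 15 mtDNA-encoded genes held 259333 counts, or 1.56% of all counts, in 3D cells (Wilson interval 1.55% to 1.56%) and 447650 counts, or 3.11%, in 2D cells (3.11% to 3.12%). Their share in 3D cells was thus 2.00-fold lower. The counts of mt-Co2, mt-Co3, mt-Atp6, mt-Nd3 and mt-Nd4l in these sums are uncertain, as given above, and the shares carry that limit. TMM-scaled, the sum stood at 19165 CPM in 3D cells and 25312 CPM in 2D cells, a ratio of 0.757 (0.753 to 0.761). mt-Co1 had the 6th highest count of all genes in 3D cells and the 1st in 2D cells, and mt-Cytb was at rank 56 in 3D cells and at rank 7 in 2D cells. Share and level were both lower in 3D cells, and the size of the difference depended on the scaling.

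Gene by gene, 13 of the 14 measured mtDNA-encoded genes had a ratio under 1 under TMM, against 48.2% of all measured genes, and all 14 did under total counts, against 68.7%. The counting interval lay wholly below 1 for 10 genes, wholly above 1 for mt-Co3 and held 1 for mt-Nd3, mt-Nd4l and mt-Atp6. The shares of all measured genes with such intervals are not given here, so these interval counts have no background. At least 2-fold differences were few. The 2-fold rule called 1 of 14 genes lower, or 7.14%, against 20.8% of all measured genes, and 0 higher, against 18.7%. Under total counts it called 8 of 14 lower, or 57.1%, against 35.9%, and 0 higher, against 5.77%. The median log2 ratio of the 14 genes was -0.44 under TMM, where that of all measured genes was 0.05, and -1.03 under total counts, where that of all genes was -0.55.

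The complex I messengers encode the membrane arm through which the enzyme pumps protons. mt-Nd1 (chrM:2751-3707) had 33576 counts (2481 CPM) in 3D cells and 48157 counts (2723 CPM) in 2D cells, a ratio of 0.911 (0.899 to 0.924). mt-Nd2 had 14325 and 25076 counts in 3D and 2D cells, a ratio of 0.747 (0.731 to 0.762). These were small differences in well counted genes. mt-Nd4 had 10616 counts in 3D cells and 20684 in 2D cells, a ratio of 0.671 (0.655 to 0.687). mt-Nd5 (chrM:11742-13565), the longest mitochondrial messenger, had 16926 counts in 3D cells and 43223 in 2D cells, a ratio of 0.512 (0.503 to 0.521). It came closest of the messengers to the 2-fold line without crossing it. mt-Nd3 had 27 counts in 3D cells and 38 in 2D cells, and mt-Nd4l had 14 and 25. With so few counts their ratios of 0.929 (0.545 to 1.56) and 0.732 (0.352 to 1.46) could not be told from 1. mt-Nd6, the single messenger read from the other strand and known from human cells to carry little or no poly(A) tail, had 3078 counts in 3D cells and 5602 in 2D cells, a ratio of 0.718 (0.687 to 0.751). The sources used here do not give the strand option of the counting, so reads of mt-Nd6 and of RNA antisense to it cannot be told apart.

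Of the other complexes, mt-Cytb (chrM:14145-15288), which encodes the cytochrome b of complex III, had 27565 counts (2037 CPM) in 3D cells and 67915 counts (3840 CPM) in 2D cells, a ratio of 0.530 (0.523 to 0.538). mt-Co1 (chrM:5328-6872), the catalytic subunit of cytochrome oxidase, had 147650 counts (10911 CPM) in 3D cells and 224601 counts (12700 CPM) in 2D cells, a ratio of 0.859 (0.854 to 0.865). The pair thus moved apart: per count of mt-Cytb there were 5.36 counts of mt-Co1 in 3D cells and 3.31 in 2D cells. mt-Co2, which carries the copper centre that takes electrons from cytochrome c, had 632 counts in 3D cells and 1026 in 2D cells, a ratio of 0.805 (0.728 to 0.890). mt-Co3 had 601 counts in 3D cells and 551 in 2D cells, a ratio of 1.43 (1.27 to 1.60), the single ratio above 1. It fell below 1 under total counts, at a log2 ratio of -0.09. Its copy Gm28437 had 635 counts in 3D cells and 508 in 2D cells, a ratio of 1.63 (1.45 to 1.84), and was thus also higher under TMM. The gene and its copy were identical over 783 aligned bases, so their ratios cannot be read as separate observations. mt-Atp6, which forms part of the proton channel of ATP synthase, had 228 counts in 3D cells and 333 in 2D cells, a ratio of 0.895 (0.753 to 1.06). Its copy Gm10925 had more counts than the gene itself, 570 in 3D cells and 998 in 2D cells. Together the 7 pseudogenes held 1902 counts in 3D cells and 2520 in 2D cells, which would add under 1% to the mitochondrial sum. Reads that fit both places may be in neither sum, so this gives no bound on the effect of the copies.

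Of the ribosomal RNAs, 1 had the lowest ratio of the mtDNA-encoded genes. mt-Rnr2 (chrM:1094-2675), the large-subunit 16S rRNA, had 1864 counts (138 CPM) in 3D cells and 5531 counts (313 CPM) in 2D cells, a ratio of 0.440 (0.418 to 0.464), and was the gene past the 2-fold line. mt-Rnr1 (chrM:70-1024), the small-subunit 12S rRNA, had 2231 counts in 3D cells and 4886 in 2D cells, a ratio of 0.597 (0.567 to 0.628). mt-Rnr1 had 1.20 counts per count of mt-Rnr2 in 3D cells and 0.883 in 2D cells, so the order of the pair was turned round. Against 100 counts of mitochondrial messengers there were 1.60 rRNA counts in 3D cells and 2.38 in 2D cells. In libraries of selected polyadenylated RNA these counts give no measure of ribosome number.

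**Figure D2:**
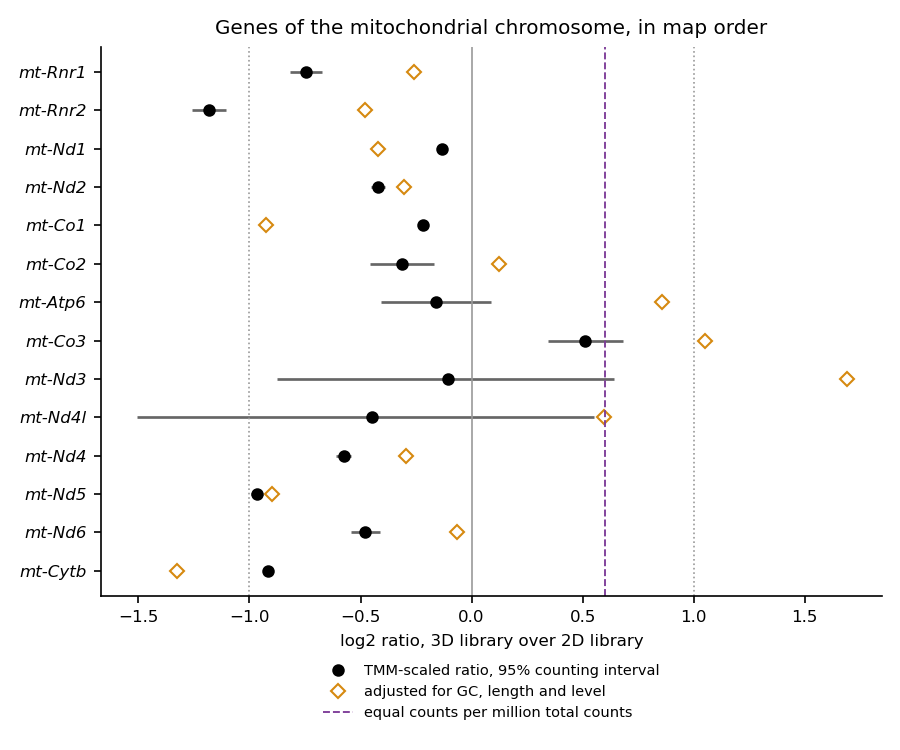
Log2 ratio of 3D over 2D cells for the 14 measured mtDNA-encoded genes, in map order. Filled points with bars are TMM-scaled ratios with 95% counting intervals, open diamonds are values adjusted for GC content, length and level, dotted lines mark 2-fold, and the dashed line at 0.60 marks equal shares of the total counts. All filled points but that of mt-Co3 lie below 0, and all filled points lie left of the dashed line.

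The make-up of the mitochondrial pool does not depend on the scaling between libraries. mt-Co1 made up 56.9% of the mtDNA-encoded counts in 3D cells and 50.2% in 2D cells, and mt-Nd1 made up 12.9% in 3D cells and 10.8% in 2D cells. mt-Cytb made up 10.6% in 3D cells and 15.2% in 2D cells, mt-Nd5 6.53% and 9.66%. So mt-Co1 and mt-Nd1 gained and mt-Cytb and mt-Nd5 lost part of the pool, and their Wilson intervals did not overlap between the libraries. mt-Nd2 held 5.52% in 3D cells and 5.60% in 2D cells, and its intervals overlapped. Taken in map order, the 6 messengers of the heavy-strand transcript with the highest counts had share ratios of 1.20 (mt-Nd1), 0.986 (mt-Nd2), 1.13 (mt-Co1), 0.886 (mt-Nd4), 0.676 (mt-Nd5) and 0.701 (mt-Cytb). The messengers nearer the start of that transcript thus had the higher share ratios and those nearer its end the lower ones, with mt-Co1 and mt-Cytb out of step with a strict order. The rRNAs, which come first on the same strand, did not follow it, at 0.788 for mt-Rnr1 and 0.582 for mt-Rnr2. This ordering was noticed in the values and has no test.

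**Figure D3:**
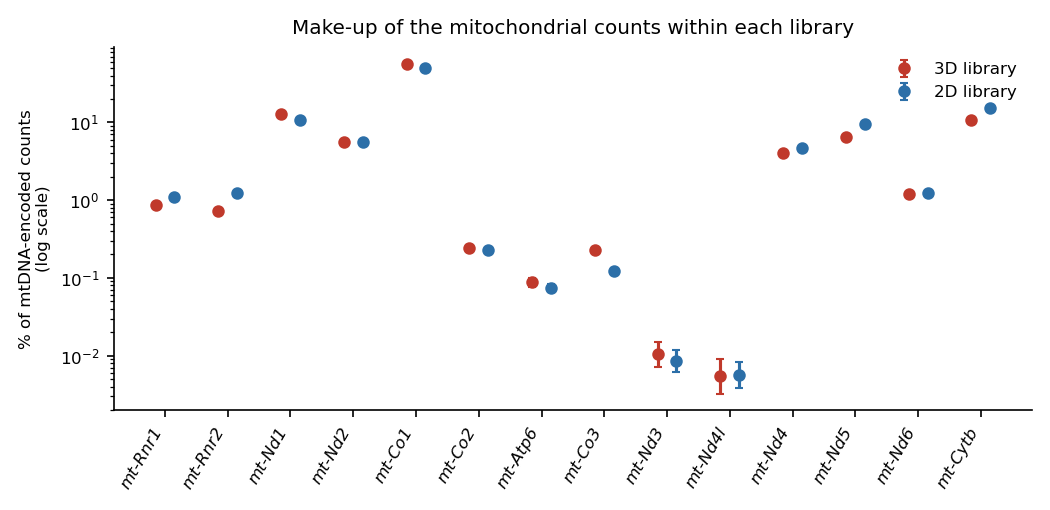
Share of the summed mtDNA-encoded counts (percent, log scale) held by each gene in 3D and 2D cells, with Wilson 95% intervals, in map order. mt-Co1 is at 56.9% in 3D cells and 50.2% in 2D cells, and mt-Cytb is at 10.6% and 15.2% in the same order.

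The nuclear genes split, with some lower and some higher in 3D cells. Of 23 measured genes, 6 were at least 2-fold lower, or 26.1%, against 20.8% of all measured genes, and 3 were at least 2-fold higher, or 13.0%, against 18.7%. Both shares are near the background, so the counts alone are no result about these genes. Their median log2 ratio was -0.18. The 6 lower genes were Pnpt1, Mterf3, Trmt10c, Ssbp1, Tfam and Tfb2m, and the 3 higher ones Hsd17b10, Tbrg4 and Elac2. Under total counts 10 were at least 2-fold lower, or 43.5%, against 35.9% of all genes, and 0 were higher. The summed level of all 24 was 1166 CPM in 3D cells and 1029 CPM in 2D cells.

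Among the genes for transcription, Tfam (chr10:71225464-71238280, minus strand), which packages mtDNA and bends its promoters, had 271 counts in 3D cells and 746 counts in 2D cells, a ratio of 0.475 (0.412 to 0.546). Tfb2m (chr1:179528055-179546267, minus strand), which helps the polymerase to melt the promoter, had 173 counts in 3D cells and 471 in 2D cells, a ratio of 0.480 (0.401 to 0.573). Both intervals hold 0.5, so counting error covers either side of the 2-fold line. Tfb2m also shares 39.6% of its 50-base words with the gene Gm1818. Polrmt (chr10:79736123-79746581, minus strand), the mitochondrial RNA polymerase, went the other way, with 604 counts (44.6 CPM) in 3D cells and 515 counts (29.1 CPM) in 2D cells, a ratio of 1.53 (1.36 to 1.73). Under total counts Polrmt was near equal, at a log2 ratio of 0.02. Mterf3 (chr13:66906968-66933088), known in the mouse as a brake on mitochondrial transcription, had 69 counts in 3D cells and 340 in 2D cells, a ratio of 0.265 (0.202 to 0.344). The polymerase was thus higher under TMM while its cofactors and that factor were lower. After the adjustment for GC content, length and level all were negative, with Polrmt at -0.23, Tfb2m at -0.29, Tfam at -0.55 and Mterf3 at -0.76.

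The genes for copying mtDNA were as mixed. Polg, the catalytic subunit of the DNA polymerase, had 1106 counts in 3D cells and 847 in 2D cells, a ratio of 1.71 (1.56 to 1.87). Its accessory subunit gene Polg2 had 66 counts in 3D cells and 129 in 2D cells, a ratio of 0.669 (0.489 to 0.906). The subunits of 1 enzyme lay on opposite sides of 1 under TMM and also under total counts, where the log2 ratio was 0.17 for Polg and -1.18 for Polg2, but both stood above 0 after the adjustment for GC content, length and level, at 0.55 and 0.21. Twnk, the helicase of the replication fork, had 562 counts in 3D cells and 670 in 2D cells, and its ratio of 1.10 (0.978 to 1.23) could not be told from 1. Ssbp1 (chr6:40471352-40484700), which coats single-stranded mtDNA, had 348 counts (25.7 CPM) in 3D cells and 1091 counts (61.7 CPM) in 2D cells, a ratio of 0.417 (0.368 to 0.471).

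The enzymes that cut the precursor at its tRNAs also differed from each other. Trmt10c and Hsd17b10 encode partners in mitochondrial RNase P, which cuts at the 5′ ends of tRNAs, and Elac2 encodes the enzyme that cuts at their 3′ ends. Hsd17b10 (chrX:152001845-152004442), which also degrades isoleucine, had 2034 counts (150 CPM) in 3D cells and 1054 counts (59.6 CPM) in 2D cells, a ratio of 2.52 (2.34 to 2.72), the highest of the set. Elac2 (chr11:64979038-65002069) had 1399 counts in 3D cells and 849 in 2D cells, a ratio of 2.15 (1.98 to 2.35). Trmt10c (chr16:56032609-56037819), by contrast, had 143 counts in 3D cells and 487 in 2D cells, a ratio of 0.384 (0.316 to 0.463). Under total counts the log2 ratios were 0.74 for Hsd17b10, 0.51 for Elac2 and -1.98 for Trmt10c, so Hsd17b10 and Elac2 were then under 2-fold. After the adjustment for GC content, length and level the values were 0.40, 0.28 and -0.56 in the same order. Tfb1m, which methylates the 12S rRNA, had 163 counts in 3D cells and 246 in 2D cells, and its ratio of 0.866 (0.706 to 1.06) could not be told from 1. Grsf1, a protein of the RNA granules, had 1637 counts in 3D cells and 1913 in 2D cells, a ratio of 1.12 (1.05 to 1.20) that fell below 1 under total counts, at a log2 ratio of -0.44.

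Of the genes that keep messengers stable, Lrpprc had 1736 counts (128 CPM) in 3D cells and 3206 counts (181 CPM) in 2D cells, a ratio of 0.708 (0.667 to 0.750). Its binding partner Slirp had 0 counts in 3D cells and 1 in 2D cells and was not measured. On the annotation, 97.8% of the exon bases of Slirp are overlapped by exons of Alkbh1 and Snw1 on the opposite strand, and the part of that overlap in the count was not tested. A level of Slirp can therefore not be read from these files. In the FASTK family of mitochondrial RNA-binding proteins, Tbrg4 (also called Fastkd4; chr11:6615598-6626067) had 2165 counts (160 CPM) in 3D cells and 1244 counts (70.3 CPM) in 2D cells, a ratio of 2.27 (2.12 to 2.44). Fastk, needed for mt-Nd6 messenger, had 1271 counts in 3D cells and 1045 in 2D cells, a ratio of 1.59 (1.46 to 1.73), although 26.1% of its exon bases overlap other genes. Fastkd1 had 205 counts in 3D cells and 460 in 2D cells, a ratio of 0.582 (0.492 to 0.688). The 3 others could not be told from 1: Fastkd2, known for its role on the 16S rRNA, at 0.881 (0.764 to 1.01), Fastkd3 at 1.07 (0.905 to 1.27) and Fastkd5 at 0.976 (0.685 to 1.39). Fastkd5 shares 65.2% of its exon bases with Ubox5 on the same strand.

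The genes for tails and decay closed the set. Pnpt1 (chr11:29130744-29161828), the polynucleotide phosphorylase that degrades mitochondrial RNA, had 189 counts in 3D cells and 937 counts in 2D cells, a ratio of 0.264 (0.224 to 0.309), the lowest of the set. Supv3l1, the helicase that works with it in the degradosome, had 679 counts in 3D cells and 516 in 2D cells, a ratio of 1.72 (1.53 to 1.93). The partners of the degradosome thus lay on opposite sides of 1, under total counts too, at log2 ratios of -2.52 for Pnpt1 and 0.18 for Supv3l1, and after the same adjustment at -0.91 and 0.47. Mtpap, the mitochondrial poly(A) polymerase, had 305 counts in 3D cells and 544 in 2D cells, a ratio of 0.733 (0.635 to 0.845). Its adjusted log2 ratio was 0.35. Other genes overlap 22.1% of its exon bases, and it shares 30.6% of its 50-base words with Gm26865.

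**Figure D4:**
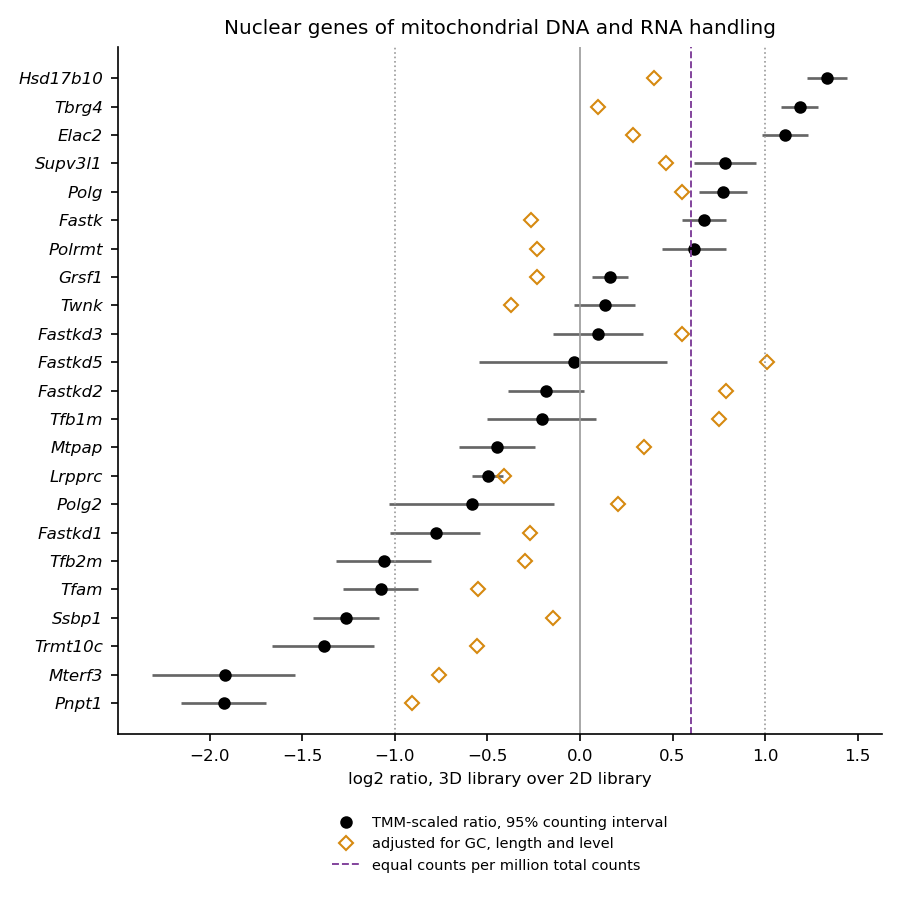
Log2 ratio of 3D over 2D cells for the 23 measured nuclear genes, ordered by ratio. Filled points with bars are TMM-scaled ratios with 95% counting intervals, open diamonds are values adjusted for GC content, length and level, dotted lines mark 2-fold, and the dashed line at 0.60 marks equal shares of the total counts. Log2 ratios run from Hsd17b10 at 1.33 to Pnpt1 at -1.92, and the diamonds lie closer to 0 for all 9 genes past 2-fold.

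The split followed the GC content of the transcripts. Across all 10526 measured nuclear protein-coding genes, the median log2 ratio was -1.30 in the tenth with the lowest GC content and 0.96 in the tenth with the highest. Of the 10 nuclear members with under 45% GC, 6 were at least 2-fold lower and 0 had a ratio above 1. Of the 13 with 45% or more, 0 were at least 2-fold lower and 10 had a ratio above 1. The shares of all measured genes in these GC classes are not given here, so these counts have no background. The medians of the protein-coding genes, split by GC content, also lay below 0 up to 49.7% GC and above 0 beyond it. The cut at 45% was not varied, and Tfam lies just under it at 44.9%. Over the 23 genes, which share both libraries, Pearson's r between GC content and log2 ratio was 0.81 and Spearman's rho 0.86, where r over all protein-coding genes was 0.59. After adjustment of the log2 ratio for GC content, length and level, 1 of 23 was at least 2-fold higher, against 10.5% of all genes, and 0 were lower, against 9.75%. Pnpt1 kept the lowest adjusted log2 ratio at -0.91, followed by Mterf3 at -0.76, Trmt10c at -0.56 and Tfam at -0.55. Hsd17b10 stood at 0.40, Elac2 at 0.28, Tbrg4 at 0.10, Polrmt at -0.23 and Ssbp1 at -0.15. The 1 adjusted call was Fastkd5 at 1.01, with its overlap.

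**Figure D5:**
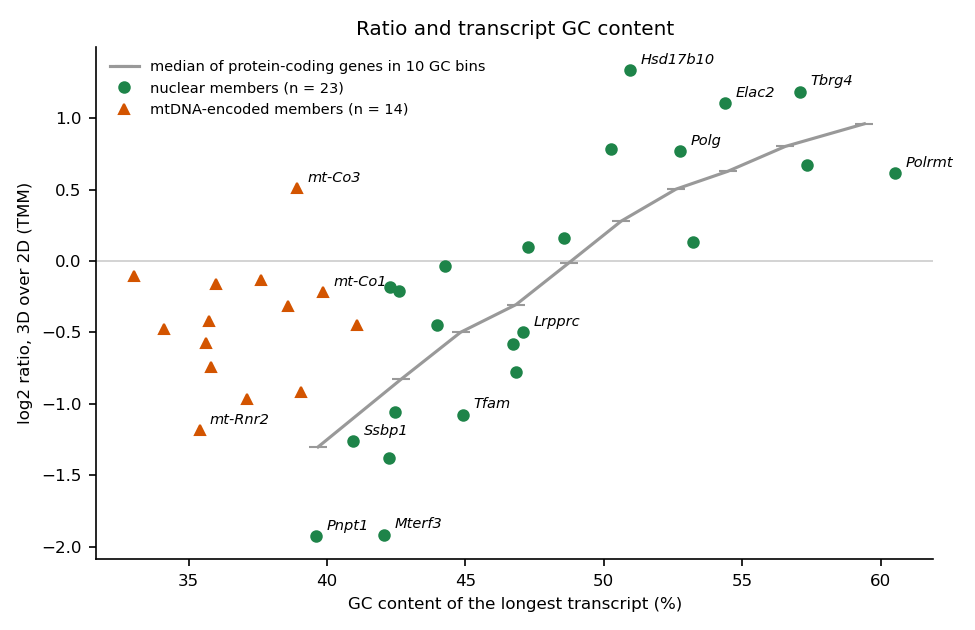
Log2 ratio of 3D over 2D cells (TMM) against the GC content of the longest transcript for 23 nuclear and 14 mtDNA-encoded genes, with the medians of measured protein-coding genes in 10 GC bins as a line. The nuclear genes run from Pnpt1 and Mterf3 at -1.92 and -1.91 at low GC content up to Hsd17b10 and Tbrg4 at 1.33 and 1.19, and the mtDNA-encoded genes lie between -1.18 and 0.51 at 33.0% to 41.1% GC.

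The mitochondrial transcripts are themselves poor in GC, at 33.0% to 41.1%. With GC content, length and level in the model their median was -0.28, with 5 of 14 values above 0 and 9 below. Those above 0 were mt-Nd3 at 1.69, mt-Co3 at 1.05, mt-Atp6 at 0.86, mt-Nd4l at 0.59 and mt-Co2 at 0.12. These are the 5 messengers with uncertain levels, and level is a term of the model. The lowest were mt-Cytb at -1.33, mt-Co1 at -0.92 and mt-Nd5 at -0.90. With GC content alone the median was 1.19, with 14 of 14 above 0. The direction of the mitochondrial genes relative to the bulk thus turned with the model.

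Levels per length set the scale of the members. In CPM per 1000 exon bases, mt-Co1 stood at 7062 in 3D cells and 8220 in 2D cells, followed by mt-Nd1 at 2593 in 3D cells and 2845 in 2D cells. mt-Cytb was at 1781 in 3D cells and 3357 in 2D cells, so mt-Nd1 and mt-Cytb changed places between the libraries. The 23 nuclear genes ran from 1.04 to 116 in 3D cells and from 1.48 to 45.9 in 2D cells. Hsd17b10 was the highest of them in both libraries, at 116 CPM per 1000 bases in 3D cells and 45.9 in 2D cells. Per length there was 1565 times as much mt-Co1 as Tfam in 3D cells and 865 times as much in 2D cells.

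Promoters of the nuclear genes were searched for the core of the ETS sites bound by GABP, CCGGAAG on either strand, and for the core of NRF1 sites, GCGCA and GCGC with 1 base of any kind between them on either strand, both known in genes for mitochondrial proteins. RefSeq windows of 300 bases were found for 22 of the 24 genes, and a match in any window of a gene was counted. The ETS core was present in 12 of 22 genes, where 22.3% of 8438 measured protein-coding genes and 8.86% of all 32851 windows held it, and the NRF1 letters in 2 of 22, Polrmt and Fastkd3, against 12.8% and 4.60%. Genes on both sides of 1 held the ETS core, among them Tfam, Ssbp1 and Trmt10c on the lower side and Tbrg4, Polg and Polrmt on the higher. The windows of Tfam (chr10:71237995-71238294, minus strand), Polrmt (chr10:79746532-79746831, minus strand) and Pnpt1 (chr11:29130494-29130793, plus strand) are shown because these genes mark a lower gene with a match, a higher gene with both motifs and the lowest gene with neither. Capitals mark the matches, and the sequences are from RefSeq on GRCm38.p6.
Tfam: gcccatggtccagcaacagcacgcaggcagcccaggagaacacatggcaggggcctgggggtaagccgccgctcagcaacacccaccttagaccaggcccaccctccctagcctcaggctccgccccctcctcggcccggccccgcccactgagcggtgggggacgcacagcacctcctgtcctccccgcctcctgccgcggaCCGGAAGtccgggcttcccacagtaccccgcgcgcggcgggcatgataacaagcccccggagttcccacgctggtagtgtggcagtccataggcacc
Polrmt: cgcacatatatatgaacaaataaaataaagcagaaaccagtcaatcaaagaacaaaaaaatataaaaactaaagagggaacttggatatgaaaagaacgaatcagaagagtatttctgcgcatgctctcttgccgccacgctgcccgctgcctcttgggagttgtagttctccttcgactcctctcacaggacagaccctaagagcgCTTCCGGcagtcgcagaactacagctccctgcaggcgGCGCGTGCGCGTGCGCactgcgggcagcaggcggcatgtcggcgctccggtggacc
Pnpt1: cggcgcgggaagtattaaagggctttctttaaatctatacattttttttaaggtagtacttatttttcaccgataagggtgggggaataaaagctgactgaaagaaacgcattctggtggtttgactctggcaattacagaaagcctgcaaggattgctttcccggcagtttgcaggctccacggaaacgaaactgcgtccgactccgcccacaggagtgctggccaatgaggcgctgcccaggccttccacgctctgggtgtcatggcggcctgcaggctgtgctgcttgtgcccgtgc

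Other nuclear genes of the same tasks were mixed as well. Of 16 measured genes for transcription and mtDNA upkeep outside the set, 6 were past 2-fold on the lower side and 0 on the higher, with a median log2 ratio of -0.62, and of 31 for RNA processing, modification and decay 0 were higher and 4 lower, with a median of 0.12, where 18.7% of all measured genes were higher and 20.8% lower. After adjustment 1 gene of the first list was higher and 2 were lower, with a median of -0.24, and 1 of the second was higher and 0 lower. Under total counts 9 genes of the first list and 8 of the second were lower and 0 higher, against 35.9% and 5.77% of all genes. In the first list Mterf1b had 10 counts in 3D cells and 73 in 2D cells, a ratio of 0.179 (0.0824 to 0.348). Its adjusted log2 ratio was -1.07. Rrm2b, a ribonucleotide reductase subunit that supplies building blocks for mtDNA, had 100 counts in 3D cells and 417 in 2D cells, a ratio of 0.313 (0.249 to 0.391), and an adjusted log2 ratio of -0.07. Trnt1, which adds the CCA end to tRNAs, had 156 counts in 3D cells and 646 in 2D cells, a ratio of 0.316 (0.263 to 0.376), and an adjusted log2 ratio of -0.56. Of 17 mitochondrial tRNA synthetases 3 were higher and 1 lower, and of 12 translation factors 3 were higher and 2 lower, with the elongation factor gene Tufm at 2.38 (2.25 to 2.52) and the insertase gene Oxa1l at 2.47 (2.32 to 2.63). The adjusted log2 ratio was -0.08 for Tufm and 0.58 for Oxa1l. Among the synthetase genes Fars2 had 460 counts in 3D cells and 217 in 2D cells, a ratio of 2.77 (2.35 to 3.27). Its adjusted log2 ratio was 1.33. After adjustment 2 of the synthetases and 1 of the translation factors were higher and 0 lower, and under total counts 0 were higher and 4 lower in each list. Of 8 regulators of mitochondrial genes 0 were higher and 2 lower under TMM, and 0 were higher and 3 lower under total counts. The 2 lower under TMM were the coactivator gene Ppargc1a and Gabpa, which encodes the DNA-binding subunit of GABP. Ppargc1a had 101 counts in 3D cells and 427 in 2D cells. Gabpa had 447 counts in 3D cells and 1496 in 2D cells, a ratio of 0.391 (0.351 to 0.434). After adjustment the log2 ratios of Ppargc1a and Gabpa were -0.46 and -0.51, so neither kept a 2-fold difference. Of the 8, 0 were then higher and 1 lower, against 10.5% and 9.75% of all genes. The lower gene was the coactivator gene Ppargc1b, at -1.04 after adjustment, -0.46 under TMM and -1.06 under total counts.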

How the data were processed

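Polyadenylated RNA of 2 cultures was sequenced, 1 per culture method. The authors deposited raw read counts per Ensembl gene, and the submitters' processing notes name Trimmomatic, HISAT2, HTSeq and mm10 without versions or settings. The annotation release was not stated in the sources used here. Symbols, positions, exon lengths, transcript GC content and sequences came from GENCODE M21, which matched 52403 of 52550 identifiers. TMM factors (edgeR 4.0.16) were 0.813 for 3D cells and 1.23 for 2D cells. Ratios have exact (Clopper-Pearson, conditional on the sum) intervals and shares have Wilson intervals. A count of 0 allows up to 3 counts, and genes at or under that limit in each library got no ratio. It corresponds to 0.180 counts per 1000000 total counts in 3D cells and 0.209 in 2D cells. Log2 ratios were adjusted, by natural splines (patsy 1.0.2, 4 degrees of freedom each), for GC content, exon length and mean level. Sequence sharing was counted over words of 50 and 100 bases against all annotated transcripts, on both strands, and copies were aligned locally. The code was tested on simulated counts. All members were accounted for. Of the other lists only some genes were named, and these were not always the ones furthest from 1. The members and lists were chosen with earlier results of these data known. The result of 1 lymphocyte marker is not reported here.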

Additional observations from a re-analysis of the deposited data

How the results depend on the processing

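No paired analysis was possible because each culture method has 1 library, which also means that no library could be left out. Under total counts, total counts without the mitochondrial chromosome and 18 reference genes (a list drawn up after seeing the data), 8, 8 and 9 mtDNA-encoded genes were at least 2-fold lower in 3D cells, against 1 under TMM. For nuclear genes these 3 settings gave 0 higher, against 3, and 10 lower each, against 6. The median log2 ratios were -1.03, -1.06 and -1.13 for mtDNA-encoded genes and -0.78, -0.80 and -0.88 for nuclear ones. Size factors of DESeq2 1.42.0 and upper-quartile scaling changed no count and moved the medians by under 0.03. Adjustment for GC content, length and level gave 2 mtDNA-encoded genes higher, mt-Nd3 and mt-Co3, both of uncertain level. It gave 1 nuclear gene higher and 0 nuclear genes lower, with an mtDNA median of -0.28. Fitted without the members, a setting chosen after seeing the data, it gave 2, 1, 0 and -0.29. Adjustment for GC content alone, also chosen then, turned the mtDNA median to 1.19, with 10 genes higher and 0 lower, turned mt-Rnr2 from -1.18 to a log2 ratio of 0.67, and left 1 nuclear gene higher, 0 lower and a nuclear median of -0.10. A 1.5-fold threshold called 4 mtDNA-encoded genes lower and 0 higher, and 7 nuclear genes higher and 7 lower. A 4-fold threshold called 0 in either class and direction. The shares of all genes at these thresholds and under adjustment for GC content alone are not given here, so these counts have no background. A pseudocount of 1 CPM gave an mtDNA median of -0.36, leaving out copies and overlaps gave -0.58, and thinning gave a nuclear median of -0.10. The mtDNA share was 1.61% in 3D cells and 3.20% in 2D cells over protein-coding counts, 1.55% and 3.10% without copies and overlaps, and 1.57% and 3.13% with the chromosome 1 copies added. Adding the copies does not bring back reads that were left uncounted, if any were. The filter on low levels changed no count. With the interval bound nearest to 1 as the ratio, 2 nuclear genes were higher, against 3, and 4 were lower, against 6. Elac2, Tfam and Tfb2m were the genes lost, and the counts of mtDNA-encoded genes did not change. The reference list of the earlier work was not used here.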

Other observations

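Of 22 mitochondrial tRNA genes, 21 had 0 counts in both libraries, and mt-Tp, the proline tRNA gene beside the control region on the light strand, had 1075 counts in 3D cells and 908 in 2D cells, a ratio of 1.55 (1.42 to 1.69) under TMM and a log2 ratio of 0.03 under total counts.

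Nuclear genes for respiratory chain subunits were picked by name after values were seen. Their median log2 ratio lay above 0, where that of the mitochondrial genes lay below, in each setting given next. In 3D cells 35 of the 73 that were measured stood at least 2-fold higher and 1 lower, where 18.7% and 20.8% of all genes did, with a median log2 ratio of 0.94 under TMM, 0.34 under total counts and 0.11 after adjustment for GC content, length and level. Under total counts 9 of the 73 were higher and 3 lower, where 5.77% and 35.9% of all genes were. After adjustment 7 were higher and 2 lower, where 10.5% and 9.75% of all genes were. The mtDNA-encoded genes had medians of -0.44, -1.03 and -0.28 in the same order, and the difference between the sets has no test. The adjusted median of all measured genes was 0.02. Median GC content was 50.3% for the measured nuclear subunit genes and 36.5% for the mtDNA-encoded genes. With GC content alone in the model the mtDNA-encoded median was 1.19, and that of the nuclear subunit genes is not given here.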
